A study of Mus musculus with 12 samples.

Results

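Small nucleolar RNA (snoRNA) genes were taken from the gene table as every row whose symbol begins with Snora or Snord followed by a digit, which gave 110 genes of 23420. Of these, 36 are H/ACA box genes (Snora) and 74 are C/D box genes (Snord). The study sorted basal cells of the mouse hard palate by how much of a diluting nuclear label they kept, and sequenced RNA from a bright and a dim fraction of each of 6 mice. GFP-HI is the fraction that the labels call infrequently dividing, and GFP-LO is the one called frequently dividing. All 12 libraries came from FVB mice heterozygous for both transgenes, K5-tTA (+/-) with tetO-H2B-GFP (+/-). The first is a transactivator under a keratin 5 promoter, and the second a histone H2B-GFP fusion that it switches on. All mice received doxycycline, which turns the fusion off, for 14 days before sorting. The mice were at postnatal day 49, except mouse B7F at postnatal day 71. No group without the transgenes or without doxycycline is analysed here, and each library was made from 200 to 1000 CD49f-stained cells. Both fractions of a mouse carry 1 code (B1M, B3M, B4M, B5M, B7F, B7M), and every difference below is GFP-HI over GFP-LO within mice.

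A snoRNA is a short nuclear RNA that base pairs with another RNA, mostly ribosomal RNA, and brings a modifying enzyme to it. C/D box snoRNAs direct methylation of the ribose by fibrillarin, and H/ACA box snoRNAs direct the change of uridine to pseudouridine by dyskerin. In mammals most of them are cut from introns of host genes, many of which encode ribosomal proteins. A few snoRNAs instead take part in cutting the ribosomal RNA precursor. The comparison asks whether the levels of these RNAs differed between cells labelled as dividing infrequently and frequently.

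The annotated sequences of 7 genes on which the results turn are shown for their boxes, with GENCODE M21 (GRCm38) positions. In C/D genes, capitals mark the C box letters TGATGA within the first 30 bases and the D box letters CTGA within the last 20 bases. In H/ACA genes, capitals mark ACA within the last 8 bases. Snord17 is at chr2:144265979-144266216 (minus strand), Snord15b at chr7:99479563-99479707 (minus), Snord104 at chr11:106500993-106501062 (plus) and Snord99 at chr4:132310691-132310764 (plus). Snora17 is at chr2:26639190-26639321 (minus), Snora64 at chr17:24720772-24720905 (plus) and Snora16a at chr4:132309465-132309600 (plus).
Snord17: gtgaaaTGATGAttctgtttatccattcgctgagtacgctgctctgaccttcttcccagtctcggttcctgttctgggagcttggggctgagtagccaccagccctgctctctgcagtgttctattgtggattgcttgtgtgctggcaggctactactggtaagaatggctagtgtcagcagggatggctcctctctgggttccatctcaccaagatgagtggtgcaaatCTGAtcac
Snord15b: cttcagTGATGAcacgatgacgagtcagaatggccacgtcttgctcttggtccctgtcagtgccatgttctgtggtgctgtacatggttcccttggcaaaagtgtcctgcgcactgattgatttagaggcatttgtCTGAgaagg
Snord104: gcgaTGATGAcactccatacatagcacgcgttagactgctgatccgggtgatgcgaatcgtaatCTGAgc
Snord99: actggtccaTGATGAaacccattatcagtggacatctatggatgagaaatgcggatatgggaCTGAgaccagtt
Snora17: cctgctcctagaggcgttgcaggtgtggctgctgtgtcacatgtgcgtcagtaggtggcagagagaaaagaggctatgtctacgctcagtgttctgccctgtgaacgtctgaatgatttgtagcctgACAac
Snora64: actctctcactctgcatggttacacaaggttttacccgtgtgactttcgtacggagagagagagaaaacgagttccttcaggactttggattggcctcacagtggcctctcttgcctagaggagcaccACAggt
Snora16a: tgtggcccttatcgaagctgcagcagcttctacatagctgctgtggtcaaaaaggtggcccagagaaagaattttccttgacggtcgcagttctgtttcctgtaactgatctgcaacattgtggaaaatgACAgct
Snord17 and Snord15b are long C/D genes, Snord104 and Snord99 are short ones, and Snord99 and Snora16a come from the same host. A GENCODE sequence was found for 103 of the 110 genes. TGATGA stood in the first 30 bases of 42 of 67 C/D sequences (62.7%) and CTGA in the last 20 bases of 65. Among 36 H/ACA sequences the same windows held them in 0 and 4, while ACA stood in the last 8 bases of 34 (94.4%), against 6 of 67 C/D sequences (8.96%). On the opposite strand, TGATGA was found in 0 sequences of either class and CTGA in 3 C/D and 5 H/ACA sequences. ACA on that strand was found in 12 C/D and 3 H/ACA sequences. Both C and D box letters stood in 40 C/D sequences and 0 H/ACA sequences.

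Enough counts for the test were present for 90 genes, 31 H/ACA and 59 C/D. Library totals ran from 6678444 to 10547665 counts, of which 31.5% to 59.8% fell on the pre-ribosomal RNA gene Rn45s. The snoRNA genes held 1.06% to 4.30% of the counts outside Rn45s. Of the tested genes, 52 had at least 100 counts in every library. At zero in all 12 libraries were 13 genes, 3 H/ACA and 10 C/D, and 3 counts correspond to 0.258 to 0.433 CPM (counts scaled to library size) in a library. For 11 of those 13 the counted interval shares bases with an exon of another gene in the table. They include Snord116, Snord116l1 and Snord116l2, whose intervals are the same, and Snora24, which lies in an exon of Snhg8. The other 2, Snord64 and Snora35, overlap no other exon. The remaining 7 genes had too few counts, at most 41 in any library (Snord98). Snord118, the U8 RNA needed for cutting the ribosomal RNA precursor, had 0 to 2 counts over a counted interval of 44 bases. How reads over shared exons were assigned is not given in the sources used here, so a value of zero is not read as absence of the RNA.

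The libraries differed between mice in ways that touch these results. GFP-HI of B1M and B3M had the fewest genes with a count, 12312 and 12810, against 13101 to 19023 in the other libraries. The summed level of C/D genes under 70 bases, divided by that of snoRNA genes of 130 bases or more, was 0.123 to 0.274 in the 4 libraries of B1M and B3M. It was 0.544 to 1.33 in the 8 libraries of the other mice. The divisor was held mostly by Snord15b and Snord17, and Snord17 was highest in B1M and B3M. The short C/D genes alone summed to 498 to 1341 CPM in B1M and B3M and to 1999 to 6223 CPM in the other mice. The 6 basal keratinocyte markers summed to 13812 to 23401 CPM, and all 6 were tested. Their sum was lower in GFP-HI in 5 of 6 mice. The 7 fibroblast markers summed to 255 to 476 CPM (GFP-HI) and 359 to 619 CPM (GFP-LO), with 1 of them (decorin, Dcn) passing the test, and the sum was lower in GFP-HI in 6 of 6 mice. The 5 immune markers, of which 1 was tested, summed to 0.246 to 15.6 CPM (GFP-HI) and 0.251 to 24.0 CPM (GFP-LO). Their sum was also lower in GFP-HI in 6 of 6 mice. In B1M, though, it was 0.246 against 0.251 CPM, below the level of 3 counts in both libraries. The 7 suprabasal markers summed to 1164 to 3517 CPM (GFP-HI) and 1207 to 2494 CPM (GFP-LO). Their sum was higher in GFP-HI in 2 of 6 mice. Melanocyte, endothelial and Merkel cell markers summed to at most 6.41, 4.91 and 21.5 CPM in any library. In each of these lists 1 marker was tested. The endothelial sum was higher in GFP-HI in 5 of 6 mice, the Merkel sum in 4 and the melanocyte sum in 2. The part of these other cells, and of the age of B7F, in the results below was not tested. Because these are sorted pools, fewer cells of a type and less RNA per cell cannot be told apart.

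**Figure D1:**
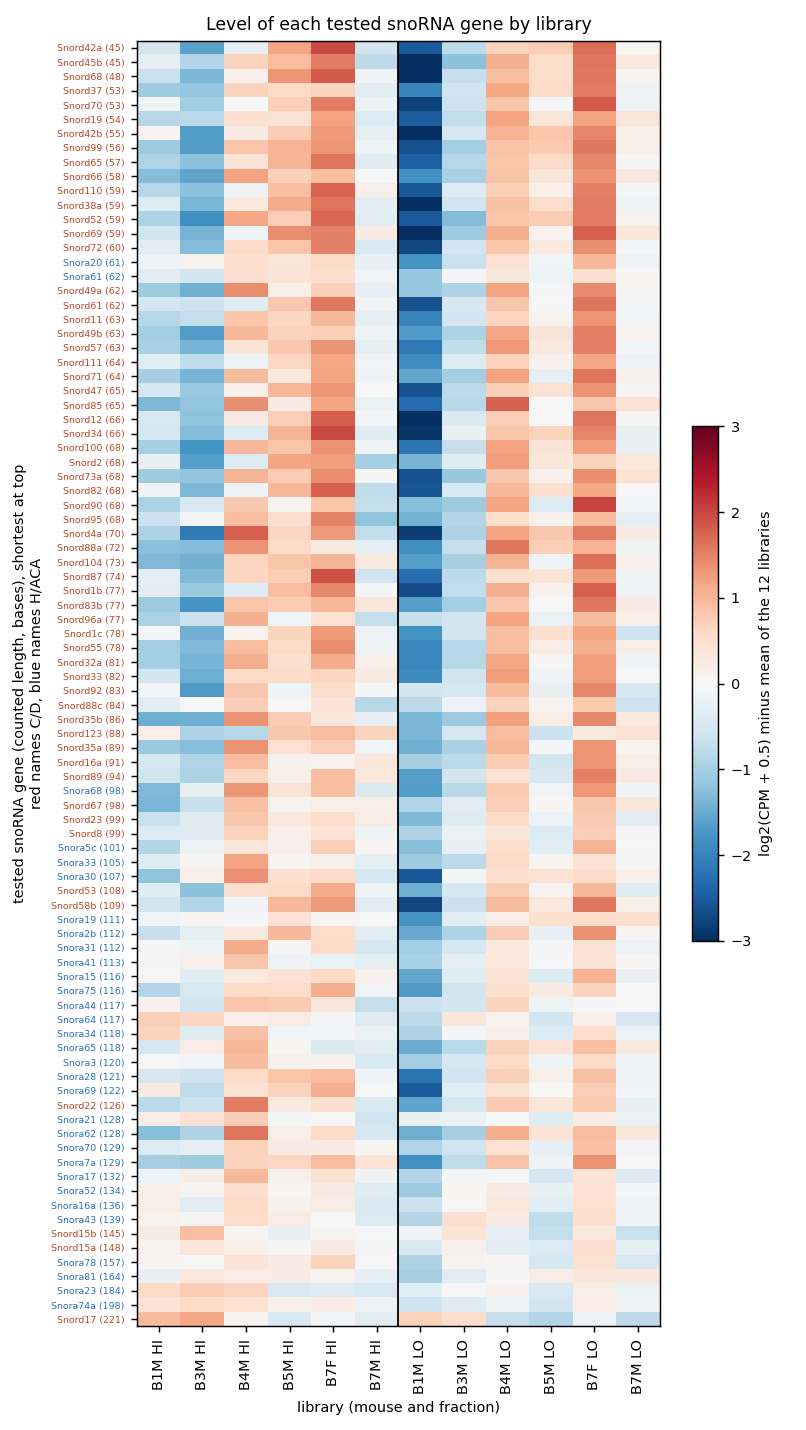
Level of each of the 90 tested snoRNA genes (rows, shortest counted length at the top, names of C/D genes in red and H/ACA genes in blue) in each of 12 libraries (columns). Colour is log2(CPM + 0.5) minus the mean of the 12 libraries for that gene. The short genes in the upper rows are mostly lowest in libraries of B1M and B3M, and Snord17 in the last row is highest there.

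Only Snord17 passed the test between the fractions. Snord17, a C/D box gene of 221 counted bases in an intron of the sorting nexin gene Snx5, was 1.36-fold higher in GFP-HI. Lower in GFP-HI were 0 snoRNA genes, also at an unadjusted p under 0.05 in edgeR and in the DESeq2 Wald test. GFP-HI of B1M, B3M, B4M, B5M, B7F and B7M held 1060.3, 1234, 564, 400.2, 526 and 441 CPM of it, respectively. Their GFP-LO libraries held 881, 787, 339, 297, 490.2 and 319 CPM. Both libraries of B1M and B3M stood above all 8 libraries of the other mice, so the fractions overlapped, yet GFP-HI was the higher one in 6 of 6 mice. Mean levels were 704 ± 352 CPM for GFP-HI and 519 ± 255 CPM for GFP-LO (SD, n = 6 mice each). The log2 fold change was 0.44 with a standard error (SE) of 0.08, and its adjusted p was 0.0254 (edgeR quasi-likelihood test, mouse as a block, Benjamini-Hochberg over 11719 genes). Within mice the log2 difference ran from 0.10 in B7F to 0.73 in B4M. Over all tested genes 0.529% were called, 0.469% higher and 0.0597% lower, beside 1 and 0 of 90 snoRNA genes. The call rests on the mouse block: without it the log2 fold change was 0.44 and the adjusted p 0.999. With B1M and B3M left out it was 0.43 with an adjusted p of 0.0226. The adjusted p was 0.152 without B3M, 0.117 without B4M, 0.0961 without B5M, 0.110 without B7M and 0.0812 with the histone cluster genes left out of the table, with log2 fold changes of 0.38 to 0.44. Snx5 itself, at 103 to 172 CPM, had a log2 fold change of 0.14 (SE 0.11, adjusted p = 0.820 by the same edgeR test).

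Snord15b and Snord15a, the U15 genes that lie together in introns of the ribosomal protein gene Rps3, did not pass the test. U15 guides a methylation in the large-subunit ribosomal RNA. Snord15b was at 2706, 4235, 2316, 1955, 2399 and 2261 CPM in GFP-HI of B1M, B3M, B4M, B5M, B7F and B7M. It was at 2095, 2994, 1901, 1371, 2759 and 1434 CPM in their GFP-LO. GFP-HI was the higher in 5 of 6 mice, all but B7F, and the ranges overlapped. The log2 fold change was 0.35 (SE 0.09), with an adjusted p of 0.174 in the edgeR quasi-likelihood test. Without B7F it was 0.47 with an adjusted p of 0.0149. Snord15a had the lowest CV (SD over mean) of the tested snoRNA genes when both fractions are averaged, 10.9% in GFP-HI and 29.5% in GFP-LO, though Snora21, Snora23 and others were lower in GFP-LO. It had 235 to 315 CPM across GFP-HI and 178 to 348 CPM across GFP-LO libraries. Its log2 fold change was 0.29 (SE 0.10, adjusted p = 0.485 by edgeR), and it too was higher in GFP-HI in every mouse but B7F. Rps3 differed by -0.01 (SE 0.08, adjusted p = 0.988 by edgeR). The pair thus had values of 0.35 and 0.29 where their host had -0.01, a gap that was not tested.

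**Figure D2:**
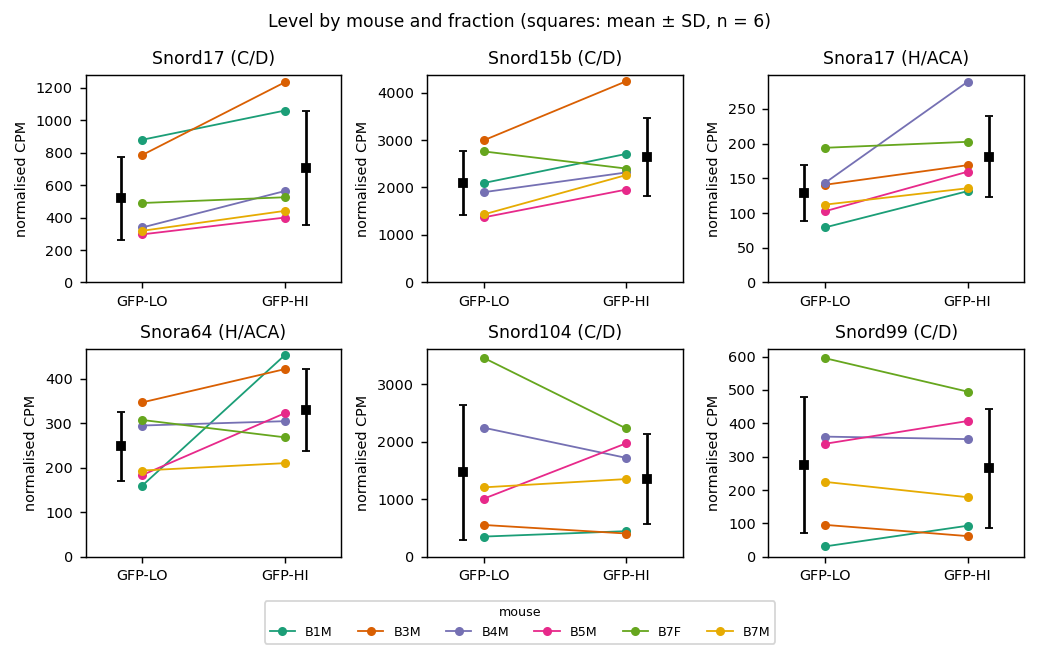
CPM of 6 snoRNA genes in GFP-LO and GFP-HI, with 1 line per mouse and squares with bars for the mean ± SD over 6 mice. All 6 lines rise for Snord17 and Snora17, 5 rise for Snord15b and Snora64, and for Snord104 and Snord99 the mice differ far more than the fractions do.

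Among H/ACA genes, 29 of 31 had a positive log2 fold change, but none was called, and 5 had an unadjusted p under 0.05, all higher in GFP-HI. The background for unadjusted p under 0.05 was 4.3% of genes higher and 2.94% lower. Their median log2 fold change was 0.23, with a range of -0.11 to 0.55, beside -0.02 over all 11719 tested genes, of which 46.9% were positive. Snora17, from the non-coding host Snhg7, was at 132, 169, 289, 159, 203 and 136 CPM in GFP-HI in the mouse order above. In GFP-LO it was at 79.4, 141, 144, 103, 194 and 112 CPM. It was higher in GFP-HI in 6 of 6 mice, and with Snord17 it was 1 of only 2 of the 90 snoRNA genes with that pattern, beside 3.3% of all tested genes. The reverse pattern, lower in 6 of 6 mice, was shown by 0 snoRNA genes and 2.62% of all genes. The log2 fold change of Snora17 was 0.49 (SE 0.11), with an adjusted p of 0.0978 in the edgeR quasi-likelihood test. The DESeq2 Wald test called Snora17 (adjusted p = 0.00282), Snora78 (0.0210) and Snora74a (0.0488) as well, and Snord15b (0.00771) among C/D genes. Snhg7, at 1.58 to 11.2 CPM, differed by -0.08 (SE 0.40, adjusted p = 0.977 by edgeR).

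The other named H/ACA genes had overlapping fractions. Snora74a (U19, host Snhg4) had the largest positive value of the class, with 45.1 to 76.9 CPM across GFP-HI and 33.0 to 60.5 CPM across GFP-LO libraries (log2 0.55, SE 0.16, adjusted p = 0.277 by edgeR). It was higher in GFP-HI in 4 of 6 mice. Snora78, from Snhg9, was at 156 to 252 CPM against 83.3 to 218 CPM (log2 0.45, SE 0.12, adjusted p = 0.233 by edgeR). Snhg9 itself had 0 to 3.32 CPM and was not tested. Snora64, from the ribosomal protein gene Rps2 next to Snhg9, was at 452, 421, 304, 322, 268 and 210.2 CPM in GFP-HI. In GFP-LO it was at 160.1, 347, 295, 184, 307 and 194 CPM. Much of its mean difference (log2 0.42, SE 0.18, adjusted p = 0.683 by edgeR) lay in B1M, where it was 1.498, while the other mice had -0.20 to 0.81. Without B1M the log2 fold change of Snora64 was 0.21.

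The other 7 of the 10 H/ACA genes of highest CPM were not called either. Snora7a, from Rpl32, had the highest CPM of the class, with 142 to 561 CPM across GFP-HI and 83.4 to 758 CPM across GFP-LO libraries (log2 0.17). Snora15, which has no host in the table, was at 0.36, and at 0.14 without B1M. Snora23, from the importin gene Ipo7, was at 0.23, at 0.09 without B1M, 0.13 without B3M and 0.39 without B7F. Snora70, from Rpl10, was at 0.17, Snora81, from the translation factor gene Eif4a2, at 0.14 and Snora16a, from Snhg12, at 0.12. Snora62 (E2, from Rpsa) had the largest negative value of the class, -0.11. None of these 7 log2 fold changes had an adjusted p under 0.8 but that of Snora15, 0.778 (edgeR). B1M and B3M left out, Snora23 stood at -0.08 and Snora81 at -0.13.

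Of 59 C/D genes, 41 were positive and 18 negative in log2 fold change, the median being 0.11 and a range of -0.33 to 0.44. Apart from Snord17 none was called, and 4 in all had an unadjusted p under 0.05 on the higher side and 0 on the lower. Snord104 had the highest level per length of all snoRNA genes, 19322 CPM per kb, ahead of Snord15b at 16338 and Snord49b at 10730 CPM per kb. In GFP-HI it was at 445, 404, 1718, 1969.8, 2229 and 1349 CPM. In GFP-LO it was at 350.5, 552, 2241, 1009, 3453 and 1206 CPM. B1M and B3M stood at 350.5 to 552 CPM in both fractions, below the 1009 to 3453 CPM of the other mice. The difference between fractions lay within that spread, with a log2 fold change of -0.0031 (SE 0.18, adjusted p = 0.998 by edgeR).

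None of the other abundant C/D genes was called. Snord83b, from Rpl3, had a log2 fold change of 0.02, Snord32a, from Rpl13a, of 0.16 and Snord49b of -0.17. Snord22 (U22, which takes part in cutting the ribosomal RNA precursor, host Snhg1) was at 0.14. Snord100, from Rps12, was at 0.07, Snord35a, from Rpl13a, at 0.03 and Snord99, from Snhg12, at 0.07. Their standard errors were 0.13 to 0.23, and the adjusted p of each was 0.857 or more (edgeR). Snord2, from Eif4a2, had the largest negative value of all, -0.33, but a standard error of 0.54 at 5 to 77 counts per library. Left out 1 mouse at a time, Snord2 ranged from -0.64 to -0.0046. Snord90, at 3 to 70 counts, had the highest CV of the tested snoRNA genes when both fractions are averaged, 67.1% in GFP-HI and 114% in GFP-LO, though Snord42a (98.2%) and others were higher in GFP-HI. For none of the 90 snoRNA genes did all GFP-HI libraries stand above, or all below, the GFP-LO libraries, beside 0.0683% and 0.128% of all tested genes.

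**Figure D3:**
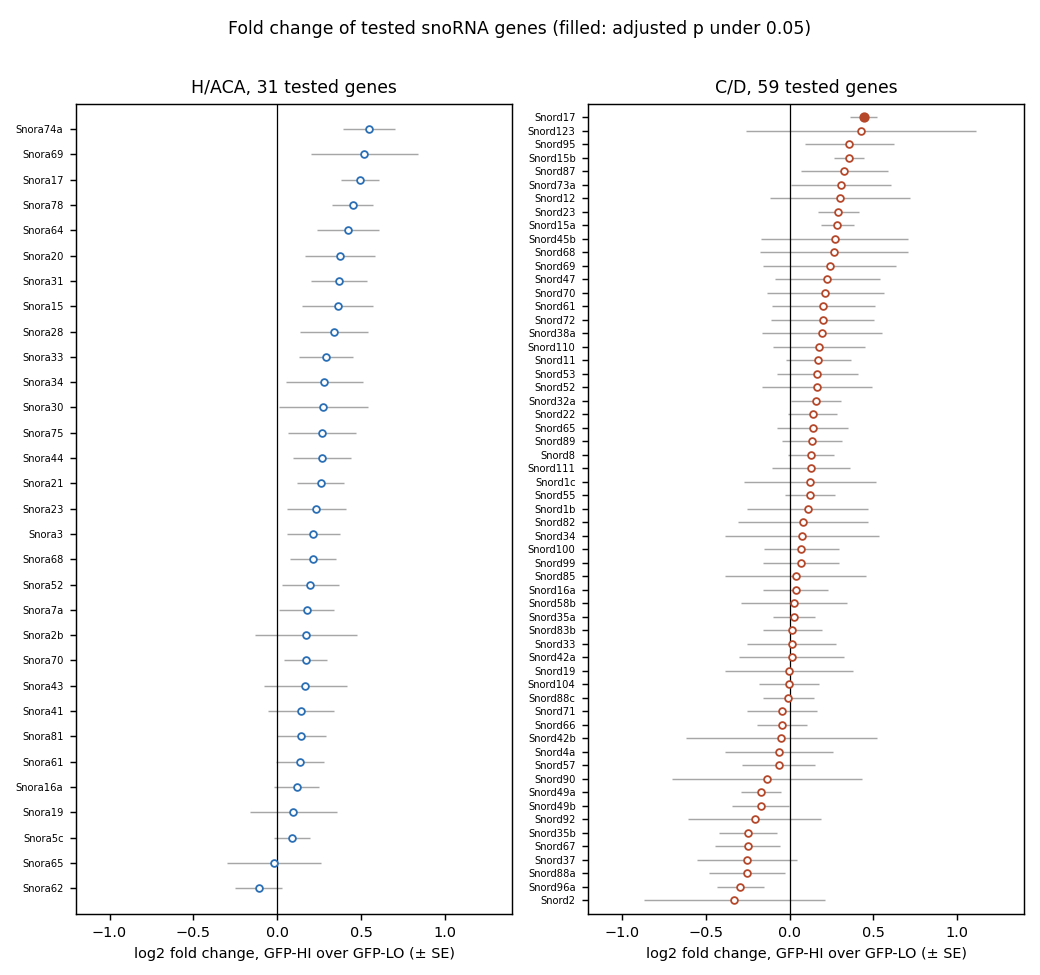
Log2 fold change, GFP-HI over GFP-LO, of the 31 tested H/ACA genes (left) and 59 tested C/D genes (right), with bars for ± SE. Snord17 is the 1 filled point (adjusted p under 0.05), and 29 of 31 H/ACA points and 41 of 59 C/D points lie right of zero.

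The direction of a class as a whole varied with the mouse. In B1M all 31 H/ACA genes were higher in GFP-HI, with a median log2 difference of 0.99, and 56 of 59 C/D genes were, with a median of 1.20. In B5M the medians were 0.45 (27 of 31 higher) and 0.49 (52 of 59). In B3M and B4M the classes parted. There the H/ACA medians were 0.26 and 0.29 and the C/D medians -0.45 and -0.25, with 8 and 21 of 59 C/D genes higher. In B7F and B7M both classes had negative medians, -0.26 and -0.27 for H/ACA and -0.20 and -0.18 for C/D. The medians over all tested genes lay between -0.03 and 0.01 in every mouse. Without B1M the median fitted log2 fold change was 0.10 for H/ACA and -0.13 for C/D genes, and without both B1M and B3M it was 0.09 and -0.06. Summed over all members, H/ACA genes reached 3250.2 ± 757 CPM (GFP-HI) against 2828 ± 1133 CPM (GFP-LO; SD, n = 6), a mean log2 difference of 0.27 ± 0.44 (SD). C/D genes summed to 11301 ± 3575 and 10643 ± 5538 CPM, a mean log2 difference of 0.18 ± 0.33. Leaving out B1M gave 0.13 for H/ACA and 0.10 for C/D, and leaving out both B1M and B3M gave 0.10 and 0.09. The C/D value was 0.11 without B5M and 0.28 without B7F. Without Snord17, Snord15a and Snord15b the C/D sum differed by 0.08, with 2 of 6 mice higher. Each full sum was higher in GFP-HI in 4 of 6 mice, and both differences are smaller than their spread between mice.

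Spread between mice was larger for C/D than for H/ACA genes, and larger for genes of short counted length, most of which are C/D. The median coefficient of variation (CV) over the 6 mice was 67.0% in GFP-HI and 71.6% in GFP-LO for C/D genes. It was 34.8% and 41.2% for H/ACA genes and 33.2% and 22.4% over all tested genes. The highest library exceeded the lowest by a median of 12.7-fold for C/D, 3.97-fold for H/ACA and 2.64-fold for all genes. Ordered by counted length instead of class, that ratio was 20.5 for the 34 genes of 45 to 68 bases and 9.23 for the 22 genes of 70 to 99 bases. It was 5.68 for the 23 genes of 101 to 129 bases and 2.84 for the 11 genes of 132 to 221 bases. The 27 other tested genes under 200 bases, among them microRNA hairpins, small Cajal body RNAs and Rnu73b, had a median ratio of 5.64. They are other genes by name only, and their class was not checked. Genes of at least 200 bases with a mean of 50 to 500 CPM (n = 2385) had 1.79. Across the 90 genes, counted length and CV had a Spearman correlation of -0.68 in GFP-HI and -0.74 in GFP-LO. Among the 50 genes with a mean of at least 50 CPM it was -0.63 and -0.75, among C/D genes -0.53 and -0.54, and among H/ACA genes -0.35 and -0.48. These genes share their libraries, so the correlations are descriptions only.

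The 11 longest tested genes, of 132 to 221 bases, were all positive in log2 fold change (median 0.29), and Snord17, Snord15a, Snord15b, Snora17, Snora74a and Snora78 are among them. The median was 0.13 over the 34 shortest (24 positive), 0.03 over the 22 of 70 to 99 bases (14 positive) and 0.21 over the 23 of 101 to 129 bases (21 positive). Most of the shorter genes are C/D and most of the longer ones H/ACA. Within each class the Spearman correlation of counted length with log2 fold change was 0.07 (n = 59 C/D and 31 H/ACA genes). Summed, the 11 long genes reached 4622 ± 1197 CPM (GFP-HI) against 3659 ± 986 CPM (GFP-LO; SD, n = 6), a mean log2 difference of 0.34 ± 0.24 with 5 of 6 mice positive. Snord15b had a mean of 2369 CPM and Snord17 of 611 CPM over the 12 libraries, so the long sum mostly follows these genes. C/D genes under 70 bases summed to 2886 ± 1828 and 2955 ± 2101 CPM, a mean log2 difference of 0.08 ± 0.73 with 2 of 6 mice positive. The median counted interval covered 87.5% of the GENCODE length in C/D genes and 90.9% in H/ACA genes. Whether the recovery of short RNAs differed between libraries was not tested.

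**Figure D4:**
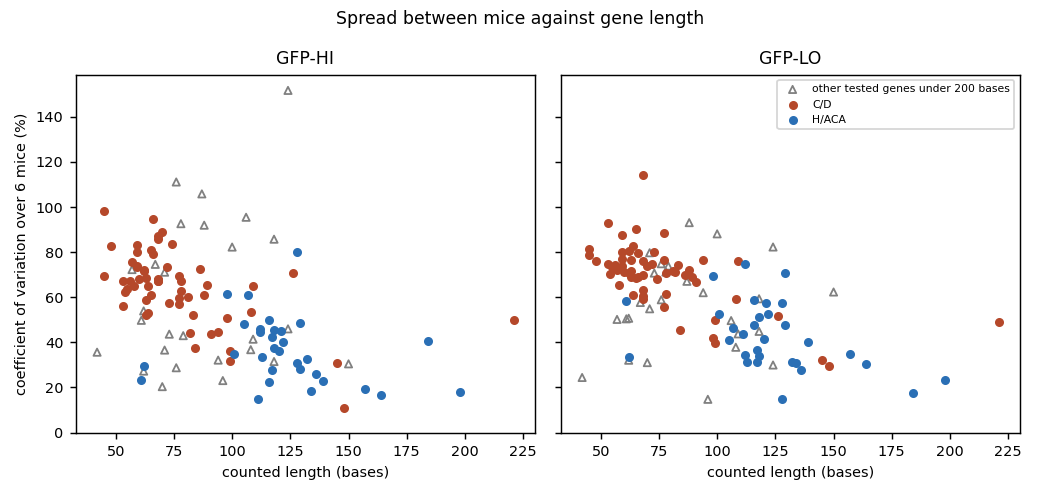
Coefficient of variation over 6 mice (y axis, percent) against counted length (x axis, bases) in GFP-HI (left) and GFP-LO (right), for C/D genes (red), H/ACA genes (blue) and the 27 other tested genes under 200 bases (grey triangles). The spread falls with length, with Spearman correlations of -0.68 and -0.74 over the 90 snoRNA genes, of which the shorter are mostly C/D.

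Of the 90 tested snoRNA genes, 86 lie within the span of a host gene on the same strand, and Snord89, Snord104, Snora15 and Snora30 do not. The 63 hosts include 22 ribosomal protein genes, which hold 30 of the snoRNA genes. Of the 62 hosts tested, 0 were called by edgeR and 0 by DESeq2, and 2 had an unadjusted p under 0.05 in edgeR. Over all tested genes edgeR called 0.529% and DESeq2 1.22%, so 0 of 62 is near the background. At an unadjusted p under 0.05 in edgeR, 4.3% of all tested genes were higher and 2.94% lower, beside these 2 of 62 hosts. The lowest adjusted p of a host was 0.639, and their median log2 fold change was -0.01. The snoRNA and its host had the same sign in 37 of 86 pairs, and the Spearman correlation of the paired log2 fold changes was 0.01 (n = 86 pairs, several of which share a host). These pairs leave out Snora78, whose host was not tested, and hold Snora19 once with Cbwd1 and once with Eif3a. In GFP-LO the snoRNA had the larger CV in 77 of 86 pairs, and the median CV of the hosts was 22.9%.

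Genes cut from the same host differed from each other as well. Snhg12 holds Snord99 and Snora16a and also Snora44 and Snora61, which were chosen after their values were seen. Snord99, counted over 56 bases, ran from 31.2 CPM in B1M GFP-LO to 595 CPM in B7F GFP-LO. Snora16a, counted over 136 bases and shown with it above, ran from 114 to 268 CPM across the same libraries. Snora61, counted over only 62 of its 130 annotated bases, ran from 38.9 to 124 CPM. Snora44, counted over 117 bases, ran from 41.8 to 124 CPM. A short counted length thus did not go with a wide range in every gene of this host. Snhg12 itself ran from 12.2 to 26.8 CPM, with a log2 fold change of -0.35 (SE 0.17, adjusted p = 0.695 by edgeR). Rpl13a holds Snord32a, Snord33, Snord34 and Snord35a, a cluster studied for its part in the response of cells to lipid overload. Snord32a ran from 148 to 1370.3 CPM and Snord35a from 90.3 to 626 CPM, while Rpl13a ran from 298 to 760.4 CPM and had a log2 fold change of -0.02 (SE 0.09, adjusted p = 0.978 by edgeR). Snord34, also chosen after its values were seen and counted over 66 bases, ran from 15.8 CPM in B1M GFP-LO to 488 CPM in B7F GFP-HI. Its neighbour Snord33 overlaps the microRNA gene Mir5121, so its count is uncertain.

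**Figure D5:**
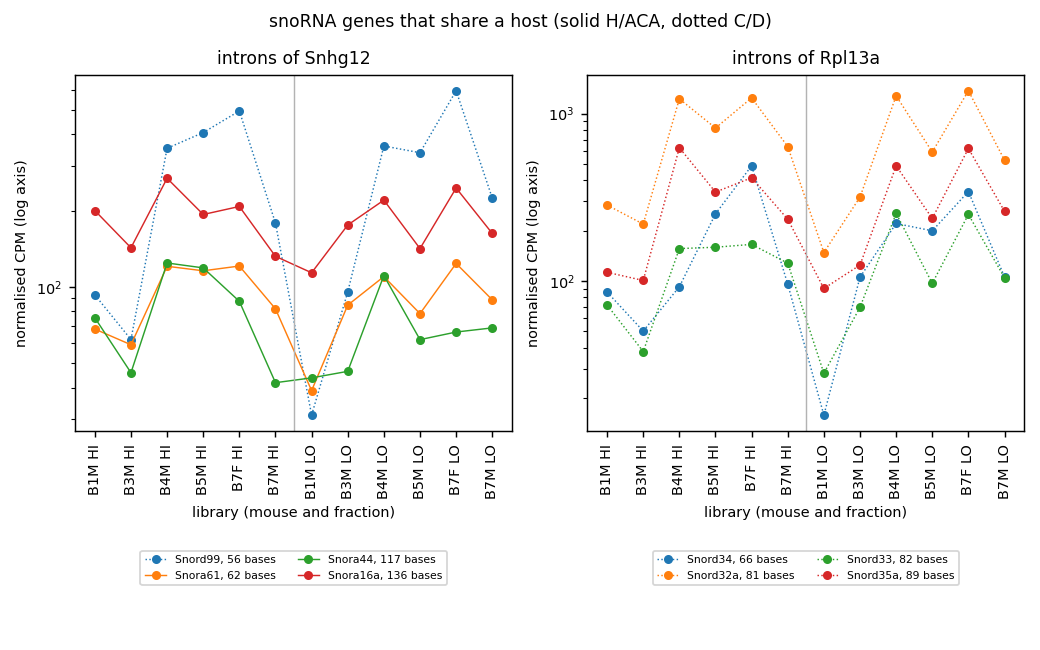
CPM (log axis) in each of 12 libraries for snoRNA genes cut from Snhg12 (left) and from Rpl13a (right), with solid lines for H/ACA and dotted lines for C/D genes. Snord99 runs from 31.2 to 595 CPM and Snora16a from 114 to 268 CPM though both come from Snhg12.

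The proteins that build, carry and trim snoRNAs were examined as a list of 32 genes. All 32 were tested, 0 were called in either direction by edgeR or DESeq2, and 0 had an unadjusted p under 0.05 in edgeR. The background was 0.529% called by edgeR, 1.22% by DESeq2, and 4.3% higher and 2.94% lower at an unadjusted p under 0.05, so 0 calls among 32 genes is near it. Of the 32, 16 were positive and 16 negative, with a median log2 fold change of 0.000082. Of the C/D core, the methyltransferase gene fibrillarin (Fbl) differed by -0.26 (SE 0.19), Nop56 by -0.06, Nop58 by 0.05 and the box-binding protein gene Nhp2l1 by 0.13. Of the H/ACA core, the pseudouridine synthase gene Dkc1 differed by -0.07, Gar1 by -0.75 (SE 0.38), Nhp2 by -0.05 and Nop10 by 0.30 (SE 0.15). Without B1M, Gar1 differed by -0.34, and its GFP-HI library of B1M held 1.11 CPM against 4.99 to 10.4 CPM in the other GFP-HI libraries. Gar1 stood at 7.74 ± 3.84 CPM (GFP-HI) and 11.6 ± 2.12 CPM (GFP-LO), and Nop10 at 40.2 ± 16.2 and 31.7 ± 9.02 CPM (SD, n = 6). The lowest adjusted p of the list was 0.713, that of Nop10. Wdr43 and Nop14, which act with the U3 RNA in early ribosome assembly, differed by -0.16 and -0.28, and Nop14 by -0.18 without B3M. Of 9 small Cajal body RNA genes, which modify spliceosomal RNAs, 0 were called, with a median of 0.05 and a range of -0.51 to 0.31. Of 5 genes taken as small nuclear RNA genes by a name beginning with Rnu, 3 were tested (Rnu11, Rnu12 and Rnu73b) and 0 called. Their class was taken from the name alone and was not checked. In both lists 0 had an unadjusted p under 0.05 in edgeR or were called by DESeq2.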

How the data were processed

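The authors' deposited table holds read counts per gene for 12 libraries with gene intervals on GRCm38/mm10, per the file headers and the submitters' processing notes. The tools named there are featureCounts, bcl2fastq 2.20.0, R 3.4.1, FastQC and DESeq2. The sources used here give no aligner, strand setting or treatment of multi-mapped or overlapping reads. Libraries were made from total RNA with the NuGEN SoLo kit, per the labels' protocols.

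The whole table was fitted with edgeR 4.0.16 in R 4.3.3 (TMM scaling, filterByExpr with a minimum count of 10 and a minimum total of 15, robust quasi-likelihood fit, mouse as a block), with Benjamini-Hochberg adjustment over 11719 genes and calls at an adjusted p under 0.05. CPM were scaled by TMM. Differences within 1 mouse used log2 CPM with a prior count of 2. A p-value of the edgeR fit sets the difference between fractions against the spread left after the mouse block, over 6 pairs. That spread was moderated across genes. It is not the spread between mice given as SD or CV. Mouse codes pair the libraries because the series calls them matched. Deviations from the group mean correlated within a mouse at 0.23 to 0.49, and at most at 0.26 with another mouse. DESeq2 1.42.0 and 14 other settings were alternatives. On simulated data for this comparison with 11719 genes, 81% of changes of log2 1 and 90% of changes of log2 2 were recovered, and 3.39% of calls were false. Changes of the size seen for snoRNA genes, at most log2 0.55, were not simulated. Mouse effects were drawn separately for each gene, while in B1M 87 of 90 snoRNA genes were higher in GFP-HI. The simulated rates therefore do not carry over to the snoRNA genes.

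Hosts are genes whose span holds the snoRNA on the same strand. Named are Snord17, called snoRNA genes, the 10 of highest CPM per class, the extremes of fold change per class and of CV, their hosts, the core proteins and the list members of smallest p. Genes and lists were chosen with earlier results of these data known. Sequences are GENCODE M21 transcripts.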

Additional observations from a re-analysis of the deposited data

Results flagged for a closer look

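Of 78 groups of 6 values examined for a value far from the rest by Dixon's criterion, 3 had one, and chance gives about 1 in 20. The log2 difference of Snora70 was -0.65 in B7F, while the other 5 mice lay between 0.12 and 0.51. Snord15b in GFP-HI was at 4235 CPM in B3M, above 1955 to 2706 CPM in the other mice. Snord22 in GFP-HI was at 1459 CPM in B4M, above 289 to 700 CPM in the other mice.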

How the results depend on the processing

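The number of snoRNA genes called higher was 1 in the fit reported and 5 with the DESeq2 Wald test (Snord17, Snora17, Snora78, Snora74a, Snord15b). It was 7 with no count filter (those 5, Snora64 and Snora15) and 3 without B1M and B3M (Snord17, Snora17, Snora78). It was 0 with no replicate block and 0 with the histone cluster genes left out, where 2 and 9 snoRNA genes had an unadjusted p under 0.05 in edgeR. Leaving out 1 mouse gave 0 to 2. It was 0 without B3M, B4M, B5M or B7M, with 6 to 13 genes higher at an unadjusted p under 0.05. Without B7F it was 2. The number called lower was 0 in every setting, with 0 to 3 at an unadjusted p under 0.05. All genes called higher were 0.469% in the fit reported, 1.02% with DESeq2, 0.582% with no filter, 0.979% without B1M and B3M, 0% with no block and 0.0514% without histone genes. When 1 mouse was dropped, this share ran from 0.246% (B3M) to 0.684% (B1M), and dropping B7F gave 0.343%. In these fits 89 to 91 snoRNA genes were tested, so 0 calls among them is near the background. The log2 fold change of Snord17 was 0.44 with no replicate block (adjusted p = 0.999) and 0.44 without histone genes (adjusted p = 0.0812), both by edgeR. Over the mice left out it was 0.38 to 0.51 with edgeR adjusted p of 0.00929 to 0.152. Over all 15 alternatives the adjusted p was 2.54e-05 to 0.999, and 9 called it. The cause of these differences was not tested.

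Signs turned for genes with small differences, none of them called. Without B1M and B3M the log2 fold change was -0.081 for Snora23, -0.13 for Snora81, 0.022 for Snord104, -0.091 for Snord99, 0.041 for Rpl13a, 0.075 for Rps3, -0.034 for Snx5 and 0.099 for Nop56. With DESeq2 size factors it was 0.0049 for Snord104 and 0.00033 for Rps3, and with the DESeq2 test 0.0052 and 0.00025. With no replicate block it was -0.054 for Snord83b, -0.051 for Snord99, 0.11 for Snhg7 and 0.00083 for Nhp2. Leaving out 1 mouse gave -0.019 to 0.20 for Snora16a, -0.24 to 0.044 for Snora62, -0.19 to 0.13 for Snord104, -0.14 to 0.17 for Snord83b, -0.13 to 0.30 for Snord100, -0.075 to 0.15 for Snord35a, -0.19 to 0.21 for Snord99 and -0.35 to 0.16 for Snord90. For hosts and proteins it gave -0.089 to 0.070 for Rpl13a, -0.086 to 0.052 for Rps3, -0.30 to 0.22 for Snhg7, -0.10 to 0.065 for Nop56, -0.049 to 0.16 for Nop58, -0.0068 to 0.27 for Nhp2l1, -0.14 to 0.0041 for Dkc1 and -0.19 to 0.079 for Nhp2. Of 584 single-gene values recomputed, Snord17 included, 520 kept their sign and side of the threshold, 45 turned sign, 13 newly passed the threshold and 6, all of Snord17, lost the call. With 200 to 1000 cells per library, genes under 10 counts are limited by depth.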
